A study of Mus musculus with 2 samples.

Results

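The genes described here encode the machinery that carries proteins into mitochondria, together with the CHCHD proteins, small proteins of the space between the mitochondrial membranes. They were chosen by symbol from the deposited count table: all Timm, Tomm and Chchd genes with a number, Dnlz, Grpel1, Grpel2, Pam16, Mtx1 to Mtx3 and Samm50, without pseudogene names. The pattern found 42 of 56791 genes. Of these, 41 encode proteins and 1, Tomm6os, is an antisense RNA of Tomm6. RNA sequencing compared 2 cultures of RAW264.7, a wild-type mouse macrophage line that came from a leukaemia, to ask what FAPD10-exos do to M2 polarization, the macrophage state that IL-4 induces. In the labels' treatment protocol, as read here, each culture was given 20 ng of mouse IL-4 for 24 h, 1 culture got 10000000 particles of FAPD10-exos along with it, and the other was the vehicle control. What the preparation consists of is not spelled out in the labels, and no library without IL-4 was analysed here. Each group held 1 library, called here the treated and the vehicle library.

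With 1 library per group the differences below have no replicate check and no test was possible. They describe these libraries, not the treatment. The treated library held 37196241 and the vehicle library 36152743 counts. Levels are counts per 1000000 of the TMM-scaled library size, written CPM, and a ratio is the treated over the vehicle level. A range in parentheses after a ratio is its exact Clopper-Pearson 95% interval, which covers counting error only. It takes each count as a separate read. Among genes with 1 to 50 counts, 76.3% were even in the treated library and 75.1% in the vehicle library, so both ends of read pairs may have been counted, and the intervals may be too narrow. All 10 macrophage markers examined, such as Csf1r and Lyz2, were measured, while 0 of 16 markers of fibroblasts, endothelial, epithelial, T or B cells reached 1 CPM. In such bulk RNA, a lower level per cell and a smaller share of cells that carry a transcript cannot be told apart.

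Almost all mitochondrial proteins are made in the cytosol and imported. The TOM complex of the outer membrane receives them, the SAM complex inserts barrel-shaped proteins into that membrane, and small TIM chaperones carry hydrophobic proteins across the space between the membranes. The TIM22 complex places carriers in the inner membrane, whereas the TIM23 channel and its ATP-driven motor pull proteins with a leading presequence into the matrix. Chchd4, also known as MIA40, folds small cysteine-rich proteins in the intermembrane space by forming disulfide bonds, and small TIM and CHCHD proteins are among its substrates. In macrophages, mitochondria supply energy and metabolites, and IL-4-activated macrophages are known for their reliance on oxidative phosphorylation.

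Most of these genes stood higher in the treated library. Of the 42 genes, 40 had a mean of at least 1 CPM and are called measured. Of these, 38 had a ratio above 1, and for 35 the whole interval lay above 1. Of all 12264 measured genes, 6225 had a ratio above 1 and 4578 an interval above 1. At least 1.5-fold higher, with an interval above 1, were 23 of the 40, or 57.5%, against 17.1% of all 12264 measured genes. At least 1.5-fold lower was 1 gene, Mtx3, against 19.8% of all measured genes. At the 2-fold threshold 6 genes were higher and 0 lower, against 4.19% and 8.64% of all measured genes. The median log2 ratio of the 40 was 0.61, and that of all measured genes was 0.01. These counts move with the scaling. Under scaling by total counts, which lowers every log2 ratio by 0.128, 12 of the 40 were at least 1.5-fold higher, against 11.9% of all genes. Among all genes past the 1.5-fold threshold, higher genes made up 46.3% under TMM, 32.3% under total counts and 53.8% under upper-quartile scaling.

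**Figure D1:**
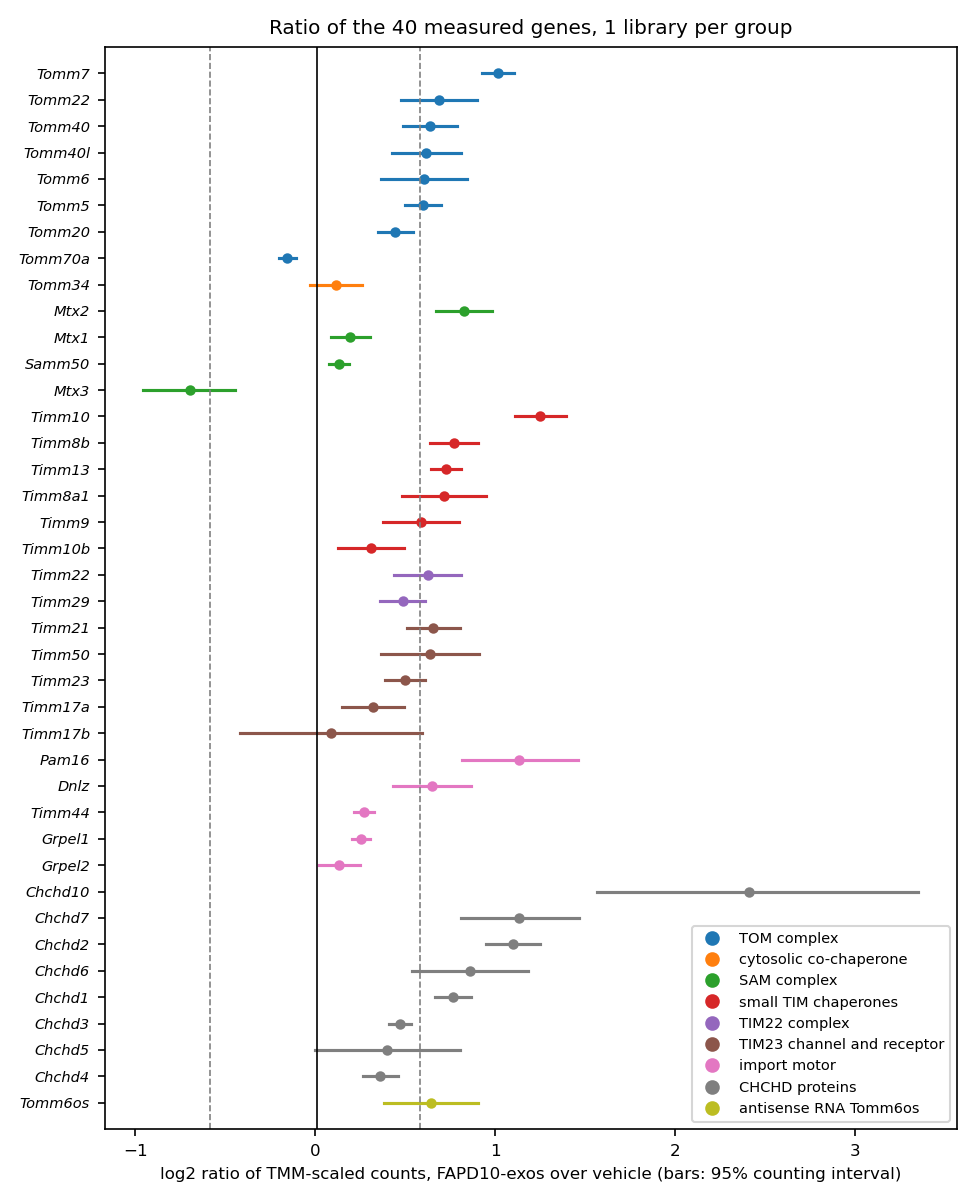
Log2 ratio of each of the 40 measured genes, treated over vehicle, with its 95% counting interval as a bar. Colours give the role, the solid line is the median of all measured genes, and dashed lines mark 1.5-fold. Chchd10 stands far to the right at 2.41, and Mtx3 at -0.70 is the only gene left of the lower dashed line.

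Transcript length went with the ratio in this experiment, in all genes and in these. Over 39 of the measured genes with a known length of the principal transcript, Spearman's rho between log2 ratio and length was -0.67. Over 9966 measured protein-coding genes with such a length it was -0.60. These are descriptions across genes that share the same 2 libraries. Many import genes are short. Their median length was 1617 nt, against 2984 nt for the 9966 coding genes. So each gene is also given after subtraction of the median log2 ratio of coding genes of like length, called the length correction. With it, 8 of 39 genes cleared 1.5-fold upward, against 10.2% of all 9966 genes, and 0 were lower, against 12.0%. The part of length in the ratios of single genes was not tested.

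The CHCHD proteins had the highest median log2 ratio of the larger groups, 0.81 over 8 genes. All 8 ratios were above 1, and 5 genes were at least 1.5-fold higher, where 17.1% of all measured genes were. Chchd10, a protein of the cristae whose mutations cause motor neuron disease and dementia in people, had 70 treated against 14 vehicle counts. That is 1.97 against 0.371 CPM, a ratio of 5.31 (2.96 to 10.2), and it held rank 7 among all 12264 measured genes by ratio. Its interval was 2.32 to 14.2 with the counts halved. With 1 CPM added to each level its log2 ratio went from 2.41 to 1.11. Both counts are low, and 11.4% of its exon length is shared with the neighbouring genes Gm867 and Mmp11. Mmp11 had 16 against 3 counts, and the part of such reads was not tested. Chchd2, the paralog of Chchd10 and a regulator of respiration, had 1113 against 552 counts, or 31.3 against 14.6 CPM, a ratio of 2.14 (1.93 to 2.38). The ratio of Chchd10 was 2.48 times that of Chchd2 (1.37 to 4.81), or 1.07 to 6.70 with counts halved, so the 2 paralogs differed by more than counting error. The scaling cancels in this comparison. Corrected for length, Chchd10 stood at 2.01 in log2 and Chchd2 at 0.43.

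Chchd7, a further twin CX9C protein, had 242 against 117 counts, a ratio of 2.20 (1.76 to 2.76). Chchd1, a protein of the small subunit of the mitochondrial ribosome, had 2092 against 1305 counts and a ratio of 1.70 (1.59 to 1.83). Chchd6 and Chchd3 both belong to the MICOS complex, which shapes the cristae. Chchd6 had 222 against 130 counts, giving a ratio of 1.81 (1.45 to 2.27), and Chchd3 5218 against 3995, a ratio of 1.39 (1.33 to 1.45). Chchd6 thus exceeded Chchd3 by a factor of 1.31 (1.04 to 1.64), which with counts halved was no longer beyond counting error (0.948 to 1.81). Chchd4, the oxidoreductase itself, had the lowest ratio of the 8 at 1.29 (1.20 to 1.37), from 1978 against 1633 counts. Chchd5 had 118 against 95 counts and a ratio of 1.32 with an interval that included 1 (0.998 to 1.75). Corrected for the length of the principal transcript, Chchd10 alone of the 8 reached 1.5-fold. Chchd4 stood at 0.51, Chchd7 at 0.46, Chchd6 at 0.34, Chchd3 at 0.12, Chchd1 at 0.06 and Chchd5 at -0.04. By the gene length in the deposited table, Chchd7 at 1.12, Chchd2 at 0.80 and Chchd6 at 0.60 were also at least 1.5-fold higher. With the shortest of tied principal transcripts, Chchd4 at 0.61 was so beside Chchd10. Near copies limit 1 value here: 50.8% of the Chchd2 transcript is matched at 95% identity or more by other genes, of which the copy with the longest match, Chchd2-ps, had 0 against 2 counts.

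All 6 measured small TIM chaperones had an interval above 1. At least 1.5-fold higher were 5 of them, against 17.1% of all measured genes, and the median log2 ratio was 0.72. Timm10, which forms a hexameric ring with Timm9 that shields hydrophobic cargo, led with 1354 against 604 counts, or 38.1 against 16.0 CPM, a ratio of 2.38 (2.16 to 2.63). Its partner Timm9 had 446 against 315 counts and a ratio of 1.504 (1.30 to 1.74). The partners differed, with a Timm10 ratio 1.58 times that of Timm9 (1.33 to 1.89). The genes of the second ring did not differ beyond counting error. Timm13 had 2884 against 1849 counts, giving a ratio of 1.66 (1.56 to 1.76), and Timm8b 1222 against 761 counts, a ratio of 1.71 (1.56 to 1.87). The ratio of Timm8b was 1.03 times that of Timm13 (0.923 to 1.15). Timm8a1, the mouse gene of the protein lost in deafness-dystonia syndrome, had 390 against 252 counts and a ratio of 1.64 (1.40 to 1.93). Its transcript is matched over 43.1% of its length by Gm9797, whose 1152 against 788 counts exceed its own, so its value is uncertain. Timm10b, which sits on the TIM22 complex, had 522 against 447 counts and a lower ratio of 1.24 (1.09 to 1.41), and 22.1% of its exon length lies in other genes. Timm8a2 had 0 counts in each library, which allows up to 3 counts, or 0.0843 CPM (treated) and 0.0794 CPM (vehicle). Beside genes of like length Timm10 stood at 0.63 in log2, Timm10b at 0.36, Timm8a1 at 0.31, Timm13 at 0.25, Timm8b at 0.07 and Timm9 at -0.01, so that Timm10 alone of the 6 was still at least 1.5-fold higher. With the shortest of tied principal transcripts Timm10 stood at 0.54, under that threshold, and Timm10b turned to -0.29.

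In the TOM complex, the general entry gate, 6 of 8 measured genes reached the 1.5-fold mark, against 17.1% of all measured genes. The median log2 ratio was 0.61. Tomm7, a small subunit that affects how the complex assembles, was highest, with 2967 against 1558 counts, or 83.4 against 41.2 CPM, a ratio of 2.02 (1.90 to 2.15). The other small subunits, Tomm5 and Tomm6, lay close to the threshold. Tomm5 had 2001 against 1401 counts, giving a ratio of 1.52 (1.42 to 1.63), and Tomm6 had 358 against 250, a ratio of 1.52 (1.29 to 1.80). Tomm40, the channel, had 890 against 608 counts and a ratio of 1.56 (1.40 to 1.73), and the receptor Tomm22 471 against 311 and a ratio of 1.61 (1.39 to 1.86). Tomm40l, a second channel gene, had 556 against 385 counts and a ratio of 1.53 (1.34 to 1.75), but 64.3% of its exon length lies in Nr1i3. Of these 6 genes all but Tomm7 lay under 1.5-fold when scaled by total counts.

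The presequence receptor Tomm20 had 1928 against 1503 counts and a ratio of 1.36 (1.27 to 1.46). Tomm70a, the receptor for carrier proteins, was the exception of the complex, with 6228 against 7359 counts, or 175 against 195 CPM, and a ratio of 0.899 (0.869 to 0.930). The ratio of Tomm7 was 2.25 times that of Tomm70a (2.10 to 2.42). Their transcripts differ in length, at 1125 nt and 5964 nt, and after the length correction Tomm7 stood at 0.50 and Tomm70a at 0.33. By that measure Tomm20, at 0.75, was at least 1.5-fold higher, as was Tomm40l at 1.00, while Tomm5 stood at -0.10 and Tomm6 at -0.02. Tomm20l, a relative of Tomm20, had 12 counts against 1, a ratio of 12.7 (1.89 to 545) whose interval included 1 with counts halved, and it lay under 1 CPM. Tomm6 and its antisense RNA Tomm6os, at 303 against 206 counts and a ratio of 1.56 (1.30 to 1.87), share exons with each other and with Gm21981. Other genes cover 84.2% of the exon length of Tomm6 and 51.3% of that of Tomm6os, so their counts cannot be told apart. Tomm34, a cytosolic co-chaperone that is no part of the complex, had 809 against 793 counts and a ratio of 1.08 with an interval that included 1 (0.981 to 1.20).

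**Figure D2:**
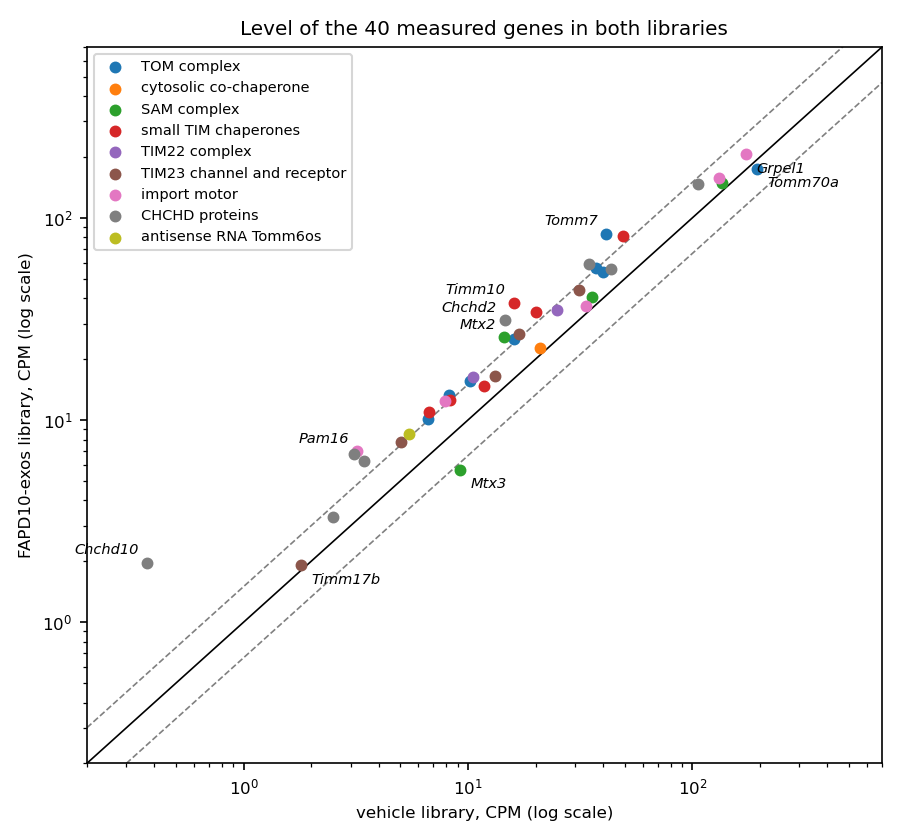
Level of each measured gene in the vehicle library (horizontal) and in the treated library (vertical), in CPM on log axes, 1 point per gene. The solid line marks equal levels and dashed lines 1.5-fold. Points lie above the solid line except Tomm70a and Mtx3, and the most abundant genes, at 100 CPM and more, all lie between the dashed lines.

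The SAM complex was split. Mtx2, a metaxin that works with Mtx1 on the outer membrane, had 916 against 548 counts, or 25.7 against 14.5 CPM, a ratio of 1.78 (1.60 to 1.98). Mtx3, the third metaxin, went the other way, with 202 against 348 counts, or 5.68 against 9.21 CPM, and was 1.62-fold lower (1.36 to 1.94). The ratio of Mtx2 was 2.88 times that of Mtx3 (2.34 to 3.55). Mtx1 lay between them with 1449 against 1343 counts and a ratio of 1.15 (1.06 to 1.24), though 43.5% of its exon length lies in other genes, among them Thbs3. Samm50, the barrel that inserts other barrels, had 5287 against 5131 counts and a ratio of 1.09 (1.05 to 1.14). Mtx3 has a transcript of 6275 nt, and coding genes of that length had a median of -0.56, so that Mtx3 stood at -0.14 after the length correction. Mtx2 stood at 0.81, Samm50 at 0.49 and Mtx1 at -0.19, the lowest of all 39 genes.

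All 7 genes of the inner membrane translocases had a ratio above 1, and 3 reached 1.5-fold upward, where 17.1% of all measured genes did. Under scaling by total counts 0 of the 7 did, with Timm21 at 0.53, Timm50 at 0.51 and Timm22 at 0.50 in log2. In the TIM22 complex, the channel Timm22 had 578 against 398 counts, giving a ratio of 1.54 (1.36 to 1.76), and its partner Timm29 had 1245 against 944, a ratio of 1.40 (1.29 to 1.53). In the TIM23 complex, 2 of 5 genes were at least 1.5-fold higher, namely the regulatory subunit Timm21, with 945 against 637 counts and a ratio of 1.58 (1.42 to 1.75), and the presequence receptor Timm50, with 278 against 190 counts and a ratio of 1.55 (1.29 to 1.88). The channel Timm23 had 1568 against 1177 counts and a ratio of 1.42 (1.31 to 1.53). Other genes match 95.6% of the Timm23 transcript, and Gm10273, which matches most of it, had 95 against 39 counts, so its value is uncertain. Timm17a and Timm17b are alternative partners of Timm23. Timm17a had 588 against 500 counts and a ratio of 1.25 (1.11 to 1.41), and Timm17b 68 in each library and a ratio of 1.06 (0.748 to 1.51). The difference between them was within counting error, at a factor of 1.18 (0.810 to 1.71). Corrected for length, Timm17a stood at 0.96, Timm22 at 0.61, Timm29 at 0.54, Timm21 at 0.53 and Timm50 at 0.29, while Timm17b stood at -0.04 and Timm23 at -0.01.

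The import motor showed its largest ratio in Pam16, a regulatory subunit that holds the J-protein of the motor in check. It had 250 against 121 counts, or 7.03 against 3.20 CPM, a ratio of 2.19 (1.76 to 2.75), but 89.6% of its transcript is matched by Gm9803. Dnlz, which keeps the mitochondrial Hsp70 soluble, had 440 against 298 counts and a ratio of 1.57 (1.35 to 1.82). The more abundant genes of the motor had lower ratios. Timm44, which tethers Hsp70 to the channel, had 5631 against 4948 counts and a ratio of 1.21 (1.16 to 1.26). Grpel1, the nucleotide exchange factor, had 7375 against 6562 counts and a ratio of 1.19 (1.15 to 1.23). Its paralog Grpel2 had 1307 against 1264 and a ratio of 1.10 (1.02 to 1.19), and the pair differed by a factor of 1.09 with an interval that just included 1 (0.998 to 1.18). The ratio of Pam16 was 1.82 times that of Timm44 (1.45 to 2.28). Corrected for length, all 5 motor genes stood at or above 0.01, with Dnlz at 0.63, Pam16 at 0.43, Grpel1 at 0.42, Grpel2 at 0.36 and Timm44 at 0.01.

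Per length of the principal transcript, the levels spanned a wide range. In the vehicle library Timm44 was highest at 73.1 CPM per kb, followed by Chchd3 at 68.2, Tomm5 at 58.0, Chchd1 at 56.1 and Grpel1 at 49.2. In the treated library Chchd1 was highest at 95.4 CPM per kb, followed by Chchd3 at 94.6, Timm44 at 88.4, Tomm5 at 88.0 and Tomm7 at 74.1. Timm44 led in the vehicle and Chchd1 in the treated library, and with 1 library each no spread is known for these levels. At the low end of the measured genes stood Timm17b, at 0.756 and 0.803 CPM per kb in the vehicle and the treated library. Chchd10, at 0.249 and 1.32, and Mtx3, at 1.47 and 0.905, were there too. Which transcript of a gene these cells use was not measured, so the levels hold only for the annotated length.

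Beside genes of like length, the import genes stood higher more often than not. Of the 39 genes 30, or 76.9%, lay above the median of their length class, where 49.8% of all coding genes did, and the 39 had a corrected median of 0.34. In the shortest of 10 equal length bins, with transcripts of 102 to 1213 nt, 11 of 12 import genes were at least 1.5-fold higher, where 52.4% of all genes of that bin were. Their median log2 ratio was 0.82 and that of the bin 0.61. In the second bin, of 1214 to 1691 nt, it was 6 of 9 genes against 32.7%. Of the 8 genes that were at least 1.5-fold higher after the correction, 6 were so before it, namely Chchd10, Dnlz, Mtx2, Timm10, Timm22 and Tomm40l. Tomm20 and Timm17a came in addition. In the other direction, 16 protein-coding genes that were at least 1.5-fold higher before the correction were not so after it. Among these, Timm9, Tomm5 and Tomm6 stood slightly below genes of like length. By the gene length in the deposited table, used in place of the principal transcript, 10 genes were at least 1.5-fold higher and the median was 0.40. For this correction the share over all measured genes is not given here. The 10 were in part other genes. Chchd10, Mtx2, Timm10 and Tomm40l were among both the 8 and the 10. Dnlz, Timm22, Tomm20 and Timm17a dropped out, and Chchd2, Chchd6, Chchd7, Pam16, Tomm7 and Tomm40 were higher by the deposited length only.

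**Figure D3:**
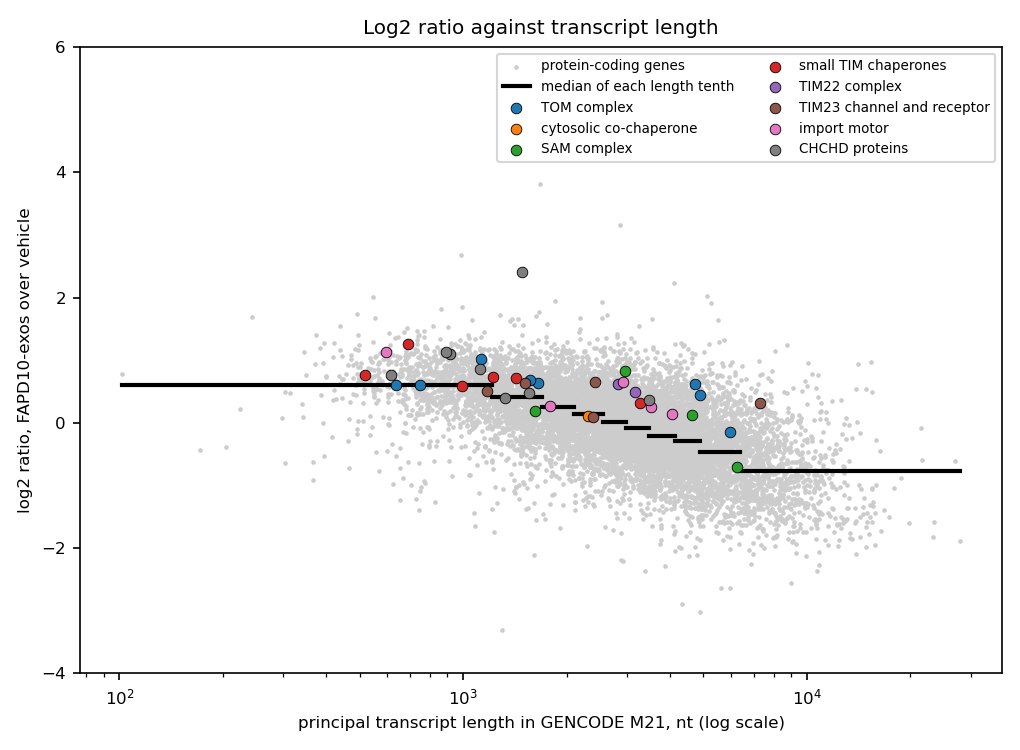
Log2 ratio against the length of the principal transcript on a log axis, for 9966 measured protein-coding genes (grey) and the 39 import and CHCHD genes with a length (coloured by role). Black bars give the median of each of 10 equal length bins, which falls from 0.61 to -0.76, and most coloured points lie above the bar of their bin.

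**Figure D4:**
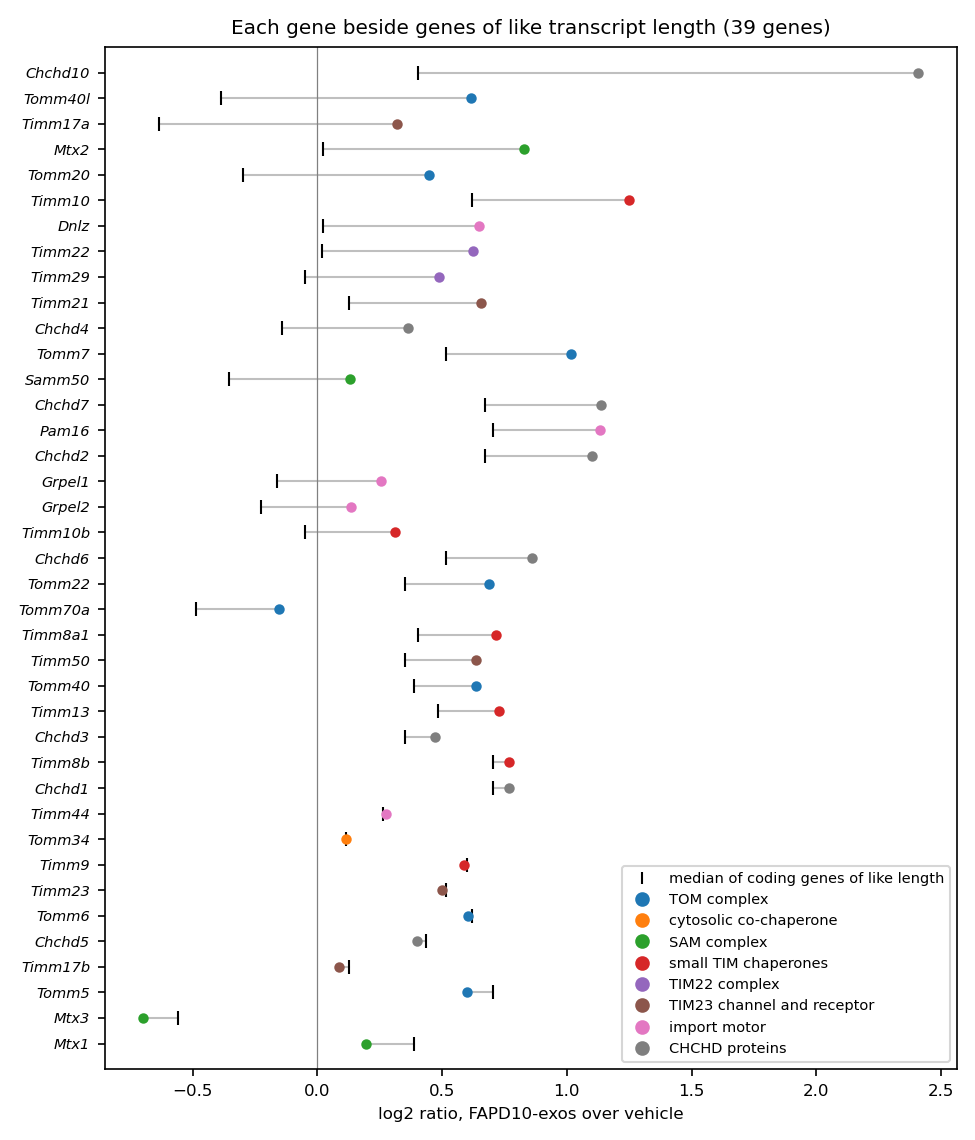
Log2 ratio of each of the 39 genes (coloured point) beside the median of coding genes of like length (black tick), ordered by the distance between them. The distance is longest for Chchd10, at 2.01, and Mtx1 at the bottom lies 0.19 to the left of its tick.

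The other genes of the pathway, from lists outside the symbol pattern, were also higher more often than lower. Of 19 measured genes of import, processing and insertion 7, or 36.8%, were higher by 1.5-fold or more and 0 lower, against 17.1% and 19.8% over all measured genes. Their median log2 ratio was 0.44. Hspe1, the co-chaperonin of Hsp60, had 47173 against 25248 counts and a ratio of 1.98 (1.95 to 2.02). Dnajc19, the J-protein of the motor that Pam16 regulates, had 3626 against 2176 and a ratio of 1.77 (1.68 to 1.87). Its relative Dnajc15 had 1506 against 909 and a ratio of 1.76 (1.62 to 1.91), and Timmdc1, an assembly factor of complex I, 802 against 516 and a ratio of 1.65 (1.48 to 1.85). The following 2 genes were chosen after their values were seen. Hspa9, the mitochondrial Hsp70 itself, had a ratio of 1.36 (1.35 to 1.37), and Gfer, which reoxidises Chchd4, one of 1.60 (1.51 to 1.71). Corrected for length, 1 of these 19 genes, Dnajc15 at 1.37, reached 1.5-fold. This share of 5.26% lies below the 10.2% of coding genes with a known length. Above the median of their length class lay 17 of the 19, or 89.5%, against 49.8% of all coding genes. The corrected median of the 19 was 0.31.

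Among 15 twin CX9C and related proteins, which Chchd4 is known to import or which resemble such substrates, 10, or 66.7%, reached 1.5-fold upward and 0 downward, against 17.1% and 19.8% of all measured genes. The median log2 ratio was 0.70. Cmc2, an assembly factor of complex IV, had 757 against 371 counts and a ratio of 2.17 (1.91 to 2.46). Ndufs5, a subunit of complex I, had 6845 against 3598 counts, at 2.02 (1.94 to 2.10), Cox6b1 of complex IV 1756 against 950 and 1.96 (1.81 to 2.13), and the assembly factor Coa6 232 against 130 and 1.90 (1.52 to 2.37). The exception was Coa5, a further assembly factor of complex IV, which was chosen after its values were seen. It had 569 against 862 counts and a ratio of 0.701, with an interval wholly below 1 (0.630 to 0.780). Corrected for length, 2 of the 15, or 13.3%, reached 1.5-fold, namely Cox17 at 0.86 and Cmc2 at 0.71. That share is near the 10.2% of coding genes with a known length. Above the median of their length class lay 12 of the 15, or 80%, against 49.8% of all coding genes. The corrected median of the 15 was 0.25. Of 5 MICOS genes outside the pattern, 3 were at least 1.5-fold higher, where 17.1% of all measured genes were. Micos10 had a ratio of 2.08 (2.0 to 2.16), Apool one of 1.80 (1.48 to 2.18), Micos13 one of 1.62 (1.43 to 1.85) and Apoo one of 1.35 (1.10 to 1.66). Immt, the core of the complex, stood at 1.08 (1.05 to 1.12), a value added after it was seen. Of the 3 with a known length, Apool, Apoo and Immt, 0 reached 1.5-fold after the correction, and their corrected median was 0.07.

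Set beside other nuclear genes of mitochondrial proteins, the import genes had a share of higher genes near that of the mitochondrial ribosome, while the SLC25 carriers had one near that of all genes. Of 78 mitochondrial ribosomal protein genes, with a median transcript of 1302 nt, 48, or 61.5%, were at least 1.5-fold higher and the median log2 ratio was 0.69. Of 35 measured SLC25 carriers, with a median transcript of 2567 nt, 5, or 14.3%, were higher, against 17.1% of all measured genes. At least 1.5-fold lower were 3 carriers, or 8.57%, against 19.8% of all measured genes, and the median was 0.14. Corrected for length, the medians were 0.34 for the import genes, 0.23 for the mitochondrial ribosome and 0.02 for the carriers. The shares at least 1.5-fold higher after it were 20.5%, 24.4% and 2.86% in the same order, against 10.2% of all coding genes. The shares above the median of the length class were 76.9%, 79.5% and 54.3%, against 49.8%. By these 2 shares the mitochondrial ribosome stood slightly above the import genes. These are descriptions, and no difference between the groups was tested.

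As a description, the promoters given by RefSeq on GRCm38.p6 for 36 of the 42 genes were searched for 2 motifs of factors known to act on mitochondrial genes. Whether these factors have a part in the ratios was not tested. Each window ran from 250 bases before to 50 bases after the annotated start, and both strands were read. The ETS-like letters CCGGAAG were found in 16 of the 36 genes, or 44.4%. Over genes with a promoter the shares were 22.8% of measured genes and 9.93% of all genes. A gene was counted when any of its windows held the letters. Of 69 mitochondrial ribosomal protein genes with a promoter, 26, or 37.7%, held them, so the share was not particular to the import genes. Among the 18 import and CHCHD genes with a promoter that were at least 1.5-fold higher, 5, or 27.8%, held them. The NRF1-like motif, written GCGCA, any base, then GCGC, was found in 4 of the 36, or 11.1%. The shares were 12.8% of measured genes and 5.19% of all genes with a promoter. In the mitochondrial ribosomal protein genes its share was 18.8%. A match is a run of letters, not a site shown to be used. The 250 bases before the start are printed for the gene with the largest ratio (Chchd10), the highest small TIM gene (Timm10), the highest motor gene (Pam16) and the only gene 1.5-fold lower (Mtx3), so that genes that went in opposite directions can be compared. Motif letters are in capitals. They lie at chr10:75932880-75933129 on the plus strand (Chchd10), chr2:84826771-84827020 on the plus strand (Timm10), chr16:4624947-4625196 on the minus strand (Pam16) and chr13:92844518-92844767 on the plus strand (Mtx3).
Chchd10: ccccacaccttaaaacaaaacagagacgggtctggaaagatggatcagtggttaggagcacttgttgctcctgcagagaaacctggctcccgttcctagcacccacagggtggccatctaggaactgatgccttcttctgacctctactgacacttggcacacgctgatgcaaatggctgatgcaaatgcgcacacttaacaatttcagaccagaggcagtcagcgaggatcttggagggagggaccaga
Timm10: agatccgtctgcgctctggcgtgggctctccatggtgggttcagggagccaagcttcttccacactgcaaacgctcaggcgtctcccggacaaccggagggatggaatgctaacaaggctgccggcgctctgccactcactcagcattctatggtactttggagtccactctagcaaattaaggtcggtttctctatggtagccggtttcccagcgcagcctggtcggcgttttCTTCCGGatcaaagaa
Pam16: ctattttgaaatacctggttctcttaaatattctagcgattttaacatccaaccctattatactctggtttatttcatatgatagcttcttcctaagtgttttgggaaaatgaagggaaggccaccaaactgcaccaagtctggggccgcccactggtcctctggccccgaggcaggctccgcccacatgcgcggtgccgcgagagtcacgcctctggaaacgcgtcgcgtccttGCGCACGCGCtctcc
Mtx3: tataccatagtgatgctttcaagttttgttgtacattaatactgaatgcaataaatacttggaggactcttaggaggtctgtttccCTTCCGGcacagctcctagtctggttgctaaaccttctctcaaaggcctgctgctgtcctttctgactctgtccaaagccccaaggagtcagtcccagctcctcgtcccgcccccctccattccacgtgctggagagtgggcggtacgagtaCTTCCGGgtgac
The stretch of Chchd10 held neither motif. That of Timm10 held the ETS-like letters from 16 bases before the start, on the minus strand, and that of Pam16 the NRF1-like motif from 15 bases before it. Mtx3 held the ETS-like letters at 2 places, so a gene that was higher, Timm10, and the gene that was lower both carry them. In the 50 bases past the start, not printed, Timm10 held them at 2 more places.

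By the coordinates in the deposited table, for which no source used here names a mouse build, Chchd10 lies on chromosome 10 from 75768964 to 75773581, Timm10 on chromosome 2 from 84657341 to 84660557, Tomm7 on chromosome 5 from 24043942 to 24049159, Pam16 on chromosome 16 from 4434328 to 4442852 and Mtx3 on chromosome 13 from 92981268 to 92994738. These differ from the positions of the promoters above, which are on GRCm38.p6, and must not be joined with them. All 5 are protein-coding genes whose counts are over exons.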

How the data were processed

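The authors deposited 1 table of raw counts per gene symbol for both libraries, with the gene's merged exon length in bases as another column of the table they deposited. Per the submitters' processing notes, fastp 0.23.4, STAR 2.5.3a, featureCounts and the build GRCh38 were used. That build is human, whereas the deposited symbols are mouse, so it cannot be the build of these counts. No source used here gives the strand setting, the annotation or how multiply matching reads were counted. Columns were matched to samples by the labels' descriptions.

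Counts were scaled by TMM (edgeR 4.0.16, R 4.3.3) (factor 0.957, treated, and 1.05, vehicle). With 1 library per group edgeR's quasi-likelihood test has no residual degrees of freedom, so ratios with exact Clopper-Pearson 95% intervals of the treated share were given (scipy 1.17.1, Python 3.11.15). Where a count was 0, 0.5 was added. Ratios of 2 genes' ratios have exact conditional intervals. The length correction subtracted the median log2 ratio of each of 50 equal bins of principal transcript length (APPRIS, GENCODE M21, longest where tied). Overlap used the deposited exon coordinates on either strand, and near copies were found with BLAST 2.17.0 at 95% identity over at least 100 bases. DESeq2 1.42.0 gave median-of-ratios scaling. The procedure was tested on counts simulated with counting error only. They held no variation between libraries and no read pairs counted at both ends, so the effect of either on the calls was not tested. Full values were given for measured genes past 1.5-fold, the 3 highest and 3 lowest and those under 1 CPM, and for up to 4 genes per outside list with at least 100 counts. Most other members are also given, a choice made after their values were seen. The genes, lists, gene pairs and the length correction were chosen with earlier results of these data known.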

Additional observations from a re-analysis of the deposited data

How the results depend on the processing

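The number of import and CHCHD genes at least 1.5-fold higher, 23 of 40 measured, was 12 under scaling by total counts, 15 of 29 with a filter at 10 CPM, 6 at the 2-fold threshold, and 8, 10 and 9 after the length correction by the principal transcript, by the deposited gene length and by the shortest principal transcript. It was 18 under median of ratios, 23 under upper quartile and with counts halved, 24 without a filter, 17 with 1 CPM added, 20 without genes that overlap others and 17 without genes that have near copies. The last of these and the shortest transcript were added after the data were seen. The 1 lower gene, Mtx3, was no longer so, a count of 0, with the 10 CPM filter, at 2-fold and under the 3 length corrections. The median log2 ratio of 0.61 ranged from 0.48 under total counts to 0.68 under upper quartile. It was 0.34, 0.40 and 0.36 under the 3 length corrections, and 0.38 from pooled counts, where abundant genes weigh most. After the length correction by the principal transcript the role medians moved to 0.39 for CHCHD, 0.33 for TOM, 0.28 for small TIM and 0.29 for TIM23 genes, while that of the import motor went from 0.27 to 0.42. Under total counts the motor stood at 0.15 and the SAM complex at 0.04, and under upper quartile the motor stood at 0.34. Timm9, Tomm5 and Tomm6 changed sign after the length correction, to -0.01, -0.10 and -0.02, and with the shortest transcript Timm9 stood at -0.01 and Tomm6 at -0.11. Among genes short of 1.5-fold, the same correction also turned Timm23 to -0.01, Chchd5 to -0.04, Mtx1 to -0.19, Timm17b to -0.04 and Tomm70a to 0.33, and the shortest transcript turned Timm10b to -0.29. By the deposited length Chchd5 stood at -0.02 and Tomm34 at -0.05. Under total counts 36 of the 40 genes had a log2 ratio above 0, against 38. Of the genes outside the pattern, 4 of import and processing were higher under total counts and 1 after the length correction, of MICOS genes 3 of 5 were higher before it and 0 of the 3 with a known length after it, CX9C proteins went from 10 to 2, and 1 CX9C gene, Coa5, was lower under total counts. The length corrections change the value itself, and the cause of the length trend was not tested. Leaving out a library could not be run with 1 per group, and depth limits the genes with few counts, among them Chchd10, Tomm20l, Timm17b and Timm8a2, which had 0. No paired analysis was possible because each group held 1 library.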
